A study of Sus scrofa with 12 samples.

Results

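Heat shock proteins and their DNAJ cochaperones were followed in the testis and epididymis of the pig. The members were all genes whose symbol starts with HSPA, HSPB, HSPD, HSPE, HSPH, HSP90, DNAJA, DNAJB or DNAJC followed by a number or a letter of the series, which gave 65 of the 30640 gene rows. Samples came from adult, untreated boars of an inbred line, the Banna mini-pig, with 5 testis and 5 epididymis libraries of poly(A) RNA, and each library held 1 tissue of 1 boar. The same 5 boars gave both tissues, because the animal numbers in the file headers recur. The labels give an age of 12 months for all of them, and the headers give 12, 12, 11, 17 and 11 months for replicates 1 to 5. Both groups share the strain and the lack of treatment. They differ in tissue and, apart from testis replicate 4, in the content of structural RNA and histone genes given below. Mitochondrial content differs as well.

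Chaperones of the HSP70 family (HSPA) hold unfolded proteins in an ATP-driven cycle that J proteins (DNAJA, DNAJB and DNAJC) start by bringing the client and stimulating ATP hydrolysis. HSP90 chaperones finish the folding of kinases and steroid receptors, small heat shock proteins (HSPB) keep unfolded proteins soluble without ATP, and HSPD1 with HSPE1 forms the folding chamber of mitochondria. The testis is known for chaperone forms made in meiotic and haploid germ cells, whereas the epididymal epithelium secretes large amounts of protein through the endoplasmic reticulum.

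Levels are given as CPM, the reads of a gene per 1000000 reads of its library, and the libraries held 17980578 to 30211957 reads. A count of 0 allows 3 reads, which is 0.0993 to 0.167 CPM in 1 library. Defining markers of each tissue were present: 10 spermatid and sperm genes together reached 14568.5 to 18292.7 CPM in testis and 28.4 to 544 CPM in epididymis, and 7 epididymal epithelium genes reached 69.5 to 140 CPM in testis and 18455 to 31652 CPM in epididymis. The spermatogonia list did not separate the tissues in this way, with none of 3 tested genes called in testis, 2 higher in epididymis and sums of 34.8 to 42.0 and 48.3 to 103 CPM. Epididymis replicate 3 held the 544 CPM of spermatid and sperm genes, and the other epididymis libraries held 28.4 to 83.3 CPM. Testis replicate 4, from the boar with the header age of 17 months, stood apart in content. Small structural RNAs made up 70.5 CPM there, against 8900 to 10162 CPM in the other testis libraries and 69.4 to 123 CPM in epididymis. Histone genes made up 77.7 CPM there, against 2177 to 3106 CPM in the other testis libraries and 65.5 to 321 CPM in epididymis. Mitochondrial genes made up 16159 CPM there, against 5238 to 8323 CPM in the other testis libraries and 17840 to 64534 CPM in epididymis. Apart from testis replicate 4, tissue cannot be told apart from the content of structural RNA and histone genes. The calls that are lost without that library, or with it as the single testis library, are therefore named with the results. A fit with 1 testis library calls less readily, so a lost call alone is no measure of a changed level. The log2 fold changes of that fit are therefore described below as well. These are bulk tissues, in which fewer cells of a type and less RNA per cell cannot be told apart.

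Of the members, 63 passed the filter on low counts and were tested with edgeR across 17225 genes. By edgeR's adjusted p under 0.05, 15 members (23.8%) were higher in testis, where 36.6% of all genes tested were, and 27 (42.9%) were higher in epididymis, where 37.8% of all genes were. Together 42 members (66.7%) differed, against 74.4% of all genes, and 21 were not called. A difference beyond 2-fold was called for 11 members in testis (27.3% of all genes) and for 14 in epididymis (23.4%), 25 in either direction (50.7% of all genes). Libraries of the tissues did not overlap for 12 members higher in testis (32.1% of all genes) and for 19 higher in epididymis (29.3%), 31 in either direction (61.4% of all genes). The median log2 fold change of testis over epididymis was -0.59 over the members and -0.07 over all genes tested, with a range of -4.50 to 8.28 among the members. Both directions were found among the members, which are described by role. HSPB3 and DNAJC12 did not pass the filter, with 1 and 42 reads over the testis libraries and 10 and 42 reads over the epididymis libraries.

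**Figure D1:**
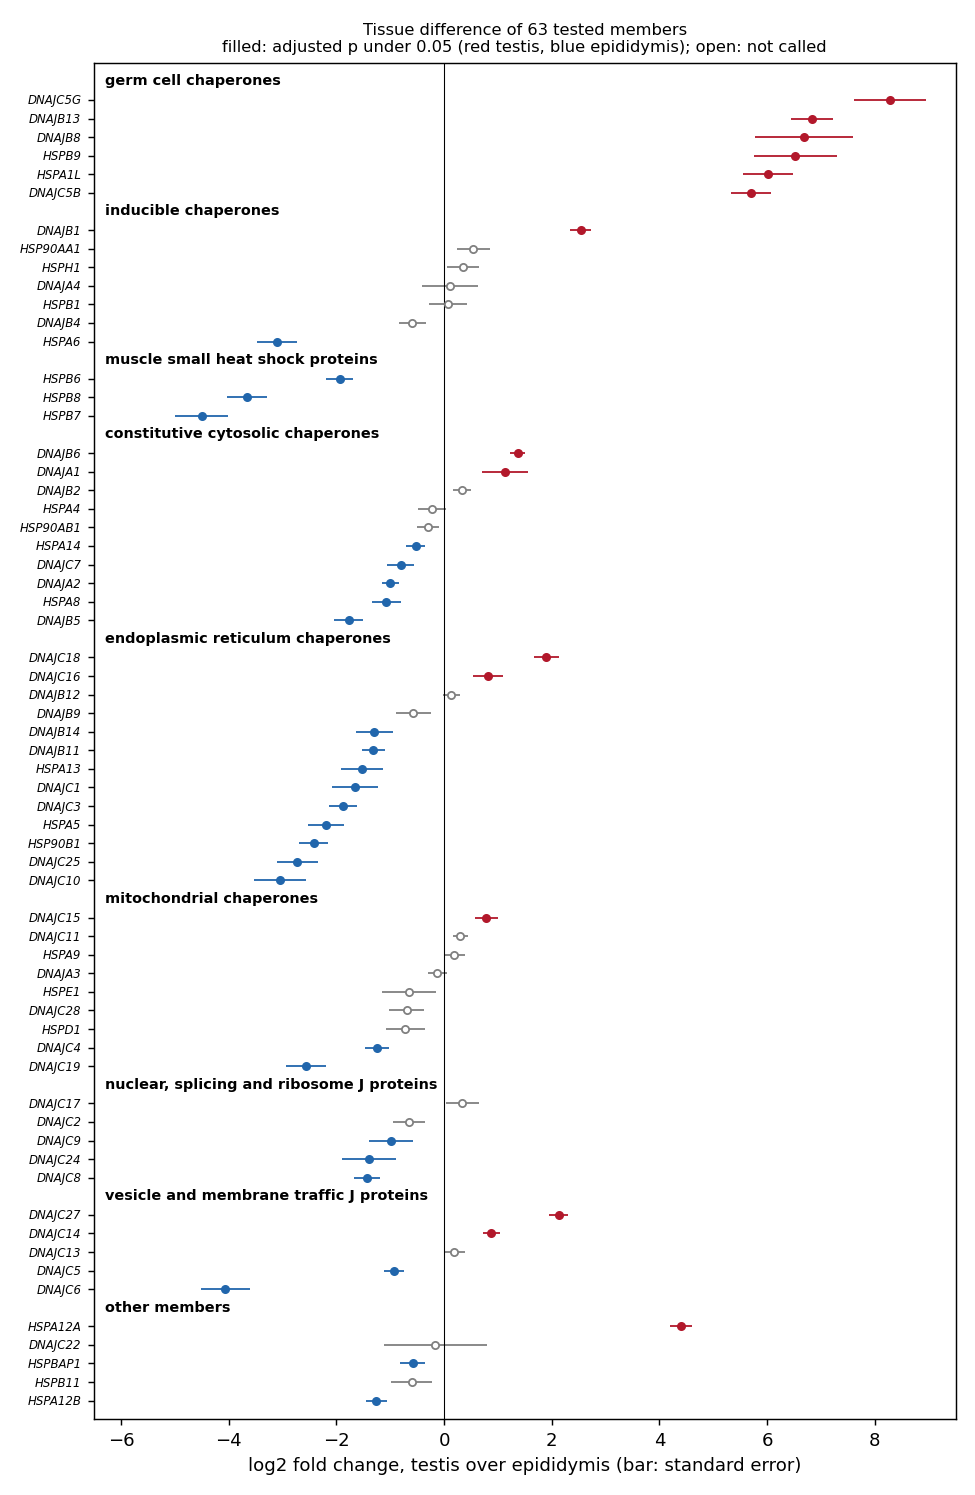
Log2 fold change of testis over epididymis (x axis) with its standard error for the 63 tested members, grouped by role on the y axis. Filled points passed edgeR's adjusted p of 0.05, red for testis and blue for epididymis, and open grey points did not. The 6 germ cell chaperones lie at the right, between 5.70 and 8.28, and the 3 tested muscle small heat shock proteins at the left, between -4.50 and -1.94.

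Chaperones known from germ cells were all higher in testis. All 6 with a row were called beyond 2-fold (27.3% of all genes) with libraries that did not overlap (32.1%), at a median log2 fold change of 6.61. Their summed level was 1750 to 2865 CPM in testis and 8.50 to 70.1 CPM in epididymis. HSPA2 and HSPA4L, the other germ cell HSP70 and HSP110 proteins of interest here, were not analysed here, nor were DNAJB3 and DNAJB7.

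HSPB9, a small heat shock protein of germ cells (chromosome 12, 20636739 to 20638395), was the member with the highest level per length in testis. It stood at 951, 916, 950, 1519 and 950 CPM in testis replicates 1 to 5 and at 2.70, 2.90, 37.4, 10.8 and 5.63 CPM in epididymis replicates 1 to 5. Each testis library lay far above each epididymis library, testis replicate 4 was the highest of its tissue and epididymis replicate 3 the highest of its own. The mean was 1057 ± 259 CPM (SD, n = 5) in testis and 11.9 ± 14.6 CPM (SD, n = 5) in epididymis, a log2 fold change of 6.52 ± 0.77 (SE, edgeR adjusted p = 1.2e-05). Divided by gene length, the mean was 2189 CPM per kb in testis and 24.6 CPM per kb in epididymis.

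HSPA1L, the HSP70 form known from spermatids (chromosome 7, 23909960 to 23938678), had 453, 350, 344, 630 and 390 CPM in testis and 3.46, 4.54, 16.0, 5.67 and 4.31 CPM in epididymis. Again testis replicate 4 and epididymis replicate 3 were the highest of their tissues and the tissues did not overlap. The mean was 433 ± 118 CPM (SD, n = 5) in testis and 6.81 ± 5.22 CPM (SD, n = 5) in epididymis, a log2 fold change of 6.02 ± 0.47 (SE, edgeR adjusted p = 4.2e-07).

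DNAJB8, a J protein known for holding back protein aggregation and for its testis expression (chromosome 13, 72010213 to 72015376), had 325, 296, 309, 403 and 306 CPM in testis and 0.407, 0.657, 12.3, 2.28 and 0.783 CPM in epididymis. Testis replicate 4 stood above the other testis libraries, and epididymis replicate 3 alone was above 10 CPM among the epididymis libraries. This gave a log2 fold change of 6.69 ± 0.92 (SE, edgeR adjusted p = 3.9e-05).

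DNAJC5B, a testis relative of the cysteine string protein (chromosome 4, 68557670 to 68641134), had 87.3, 73.7, 83.7, 199 and 84.2 CPM in testis and 1.48, 1.37, 3.01, 1.95 and 2.40 CPM in epididymis. Only testis replicate 4 departed from the narrow testis range. Its log2 fold change was 5.70 ± 0.37 (SE, edgeR adjusted p = 1.1e-07). DNAJC5G, the other testis form of that family (chromosome 3, 111853579 to 111863610), had 59.2, 51.2, 56.1, 47.7 and 52.4 CPM in testis and 17 reads over all epididymis libraries, with 0 reads in replicates 2 and 5. The log2 fold change of 8.28 ± 0.67 (SE, edgeR adjusted p = 5.5e-07) was the largest among the members and rests on those few epididymal reads.

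DNAJB13, a J protein of the sperm tail's radial spokes (chromosome 9, 8342207 to 8358617), had 72.5, 64.0, 67.9, 66.6 and 78.0 CPM in testis and 0.407, 1.15, 0.775, 0.556 and 0.196 CPM in epididymis. Here neither testis replicate 4 nor epididymis replicate 3 was the highest of its tissue. On the log2 scale the difference was 6.83 ± 0.40 (SE, edgeR adjusted p = 6.0e-08).

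Several germ cell chaperones and sperm genes were high together in epididymis replicate 3. Its level was 3.54% of the testis mean for HSPB9, 3.75% for DNAJB8 and 3.70% for HSPA1L, and 0.255 to 1.03%, 0.124 to 0.695% and 0.799 to 1.31% in the other epididymis libraries. The sperm genes PRM1, TNP1, AKAP4 and ODF1 stood at 3.71%, 4.75%, 4.43% and 4.77% of their testis means there. The part of these germ cell transcripts in the epididymal values was not tested. DNAJC5G reached 0.941% and DNAJB13 1.11%, and epididymis replicate 2 had more DNAJB13, at 1.65%. Without epididymis replicate 3 the log2 fold change was 7.60 for HSPB9, 8.33 for DNAJB8 and 9.30 for DNAJC5G.

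**Figure D2:**
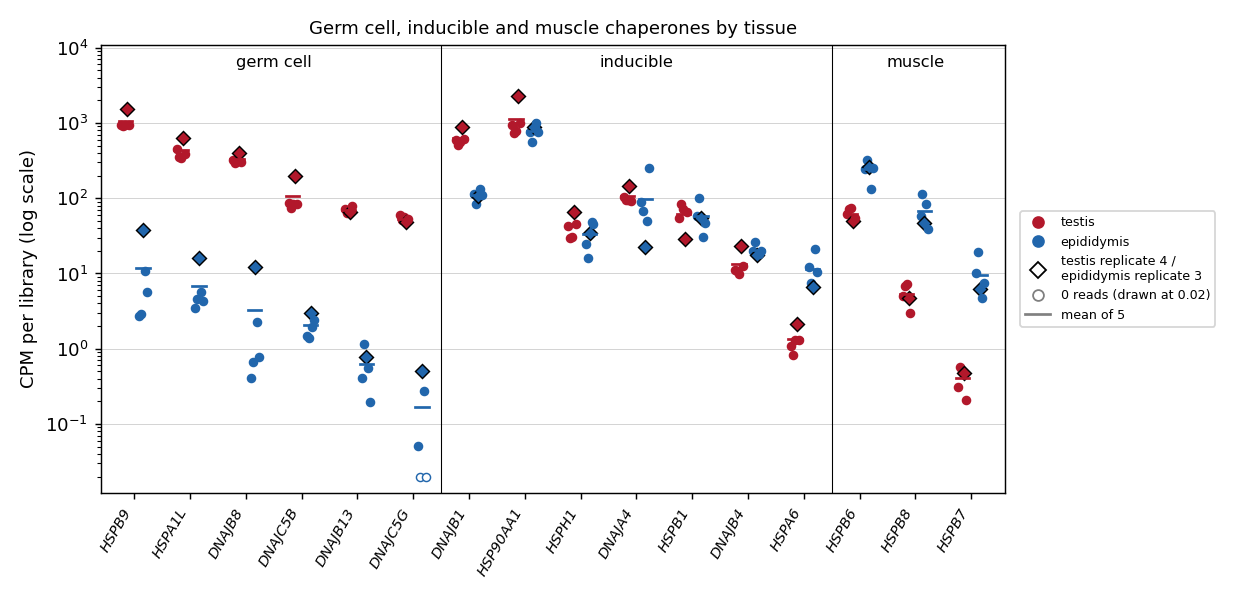
CPM of the 16 tested germ cell, inducible and muscle chaperones in each library (log scale), red for testis and blue for epididymis, with the mean of 5 as a bar. Diamonds mark testis replicate 4 and epididymis replicate 3, and open circles are libraries with 0 reads, drawn at 0.02. The germ cell genes show 2 separate clouds, whereas most inducible genes overlap between the tissues.

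The stress-inducible chaperones did not move together. Of 7 with a row, 1 was higher in testis (36.6% of all genes) and 1 in epididymis (37.8%). The other 5 were not called, and the median log2 fold change was 0.11. HSPA1A and HSPA1B, the main inducible HSP70 genes, were not analysed here, and reads of near-identical HSP70 copies may be missing or shared out among several rows. The 8 immediate early genes that respond to tissue handling, such as FOS and EGR1, were all higher in epididymis, at a sum of 130 to 248 CPM in testis and 564 to 2385 CPM in epididymis. Their part in the inducible chaperones' values was not tested.

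DNAJB1, the J protein that partners inducible HSP70 (chromosome 2, 64761672 to 64764482), had 599, 507, 552, 877 and 610 CPM in testis and 115, 82.6, 108, 131 and 111 CPM in epididymis. The tissues did not overlap, and testis replicate 4 was again the highest. Testis over epididymis, the log2 fold change was 2.54 ± 0.19 (SE, edgeR adjusted p = 3.6e-07), from means of 629 ± 145 and 110 ± 17.6 CPM (SD over 5 libraries).

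HSPA6, a strictly inducible HSP70 in humans (chromosome 4, 88970592 to 88973109), went the other way at low levels, with 1.08, 0.827, 1.30, 2.14 and 1.31 CPM in testis and 12.3, 7.45, 6.66, 21.2 and 10.4 CPM in epididymis. Every epididymis library was above every testis library. This gave a log2 fold change of -3.10 ± 0.37 (SE, edgeR adjusted p = 1.4e-05). With testis replicate 4 alone for the testis it was -2.33 and not called.

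HSP90AA1, the inducible cytosolic HSP90, which lies on an unplaced scaffold of the build, had 928, 740, 774, 2291 and 1002 CPM in testis and 767, 550, 889, 1006 and 755 CPM in epididymis. With or without testis replicate 4 the ranges of the tissues overlap, and that library alone stood more than 2-fold above the other testis libraries. The log2 fold change of 0.55 ± 0.30 (SE, edgeR adjusted p = 0.123) was not called. With testis replicate 4 alone for the testis it was 1.64 and called.

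HSPH1, the HSP110 that recharges HSP70 with ATP, had 42.8 ± 14.6 CPM (SD, n = 5) in testis and 33.9 ± 13.7 CPM (SD, n = 5) in epididymis, and its libraries overlapped (log2 fold change 0.36, edgeR adjusted p = 0.302). HSPB1, the widespread small heat shock protein HSP27, had 54.6, 84.2, 71.7, 28.4 and 65.2 CPM in testis and 58.9, 101, 55.4, 30.6 and 46.4 CPM in epididymis. In both tissues the boar of replicate 2 had the highest level and that of replicate 4 the lowest, and the tissue difference was 0.07 ± 0.36 (log2, SE, edgeR adjusted p = 0.859).

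DNAJA4, a cytosolic J protein, had 105, 93.6, 93.7, 144 and 91.2 CPM in testis and 88.5, 66.9, 22.3, 49.7 and 255 CPM in epididymis. Epididymis libraries spread more than 10-fold, from replicate 3 to replicate 5, and enclosed all testis libraries. Its log2 fold change was 0.11 ± 0.52 (SE, edgeR adjusted p = 0.853), and 0.88 without epididymis replicate 5 (edgeR adjusted p = 0.0424). DNAJB4, a relative of DNAJB1, had 11.3, 10.8, 9.81, 23.1 and 12.5 CPM in testis and 19.8, 26.1, 17.6, 18.1 and 19.8 CPM in epididymis. Only testis replicate 4 lay within the epididymal range, and the log2 fold change was -0.59 ± 0.26 (SE, edgeR adjusted p = 0.0552). It was called without testis replicate 4 (-0.85, edgeR adjusted p = 0.00185), without epididymis replicate 3 (edgeR adjusted p = 0.0427) and without epididymis replicate 4 (edgeR adjusted p = 0.0481).

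Small heat shock proteins known from muscle were higher in epididymis. All 3 tested members were called beyond 2-fold (23.4% of all genes) without overlap (29.3%), at a median log2 fold change of -3.65. With testis replicate 4 alone for the testis all 3 kept their direction. Their sum, with HSPB3, was 55.1 to 81.8 CPM in testis and 219 to 453 CPM in epididymis. HSPB2 was not analysed here. The 8 smooth muscle markers, such as MYH11 and DES, were higher in epididymis too, at 344 to 503 CPM in testis and 6061 to 17326 CPM in epididymis. Of 4 tested skeletal and cardiac muscle markers, CKM and TNNI2 were higher in epididymis, ACTA1 was higher in testis and MYH7 was not called, at a sum of 20.9 to 29.99 CPM in testis and 14.5 to 40.4 CPM in epididymis. The part of muscle cells in these values was not tested.

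HSPB6, a small heat shock protein of smooth muscle and heart (chromosome 6, 45181439 to 45184011), had 61.9, 72.4, 74.0, 50.01 and 54.4 CPM in testis and 243, 320, 263, 131 and 256 CPM in epididymis. Epididymis replicate 4 was the lowest of its tissue and still above every testis library. On the log2 scale the difference was -1.94 ± 0.26 (SE, edgeR adjusted p = 3.1e-05).

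HSPB8, which works with BAG3 in the removal of damaged proteins in muscle (chromosome 14, 33626125 to 33639824), had 4.97, 6.75, 7.31, 4.65 and 2.96 CPM in testis and 58.9, 114, 47.2, 83.5 and 39.3 CPM in epididymis. The tissues were wide apart. Testis over epididymis, the log2 fold change was -3.65 ± 0.37 (SE, edgeR adjusted p = 3.5e-06).

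HSPB7, the cardiovascular small heat shock protein (chromosome 6, 75171507 to 75174918), had 0.307, 0.563, 0.509, 0.481 and 0.205 CPM in testis and 10.2, 19.1, 6.25, 4.78 and 7.39 CPM in epididymis. Testis levels were a few reads above the limit of detection, and each epididymis library exceeded them. Its log2 fold change of -4.50 ± 0.49 (SE, edgeR adjusted p = 6.5e-06) was the lowest among the members. HSPB3, the other muscle form, had at most 0.196 CPM in any library, so no difference could be read at this depth.

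Chaperones of the endoplasmic reticulum, where secreted and membrane proteins fold, were the largest role group. They also held the most members higher in epididymis. Of 13 tested, 9 were higher in epididymis (37.8% of all genes), 2 in testis (36.6%) and 2 were not called. Their median log2 fold change was -1.52. Their summed level was 714 to 1346 CPM in testis, with testis replicate 4 the highest, and 2069 to 4577 CPM in epididymis. With testis replicate 4 alone for the testis, 2 of the 9, HSP90B1 and DNAJC25, kept their call and the other 7 kept only the direction, with edgeR adjusted p from 0.118 for DNAJC3 to 0.708 for DNAJC1.

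HSPA5 (BiP), the HSP70 of this compartment (chromosome 1, 265930044 to 265934959), had 263, 197, 192, 452 and 277 CPM in testis and 918, 680, 1293, 2211 and 1332 CPM in epididymis. Both tissues peaked in replicate 4, and the tissues did not overlap. The mean was 276 ± 105 CPM in testis and 1287 ± 583 CPM in epididymis (SD over 5 libraries), a log2 fold change of -2.19 ± 0.33 (SE, edgeR adjusted p = 7.3e-05).

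HSP90B1 (GRP94), the HSP90 of the same compartment (chromosome 5, 80511513 to 80531016), had 160, 135, 145, 332 and 183 CPM in testis and 851, 852, 1036, 1302 and 1138 CPM in epididymis. As with HSPA5, replicate 4 was the highest in both tissues. This gave a log2 fold change of -2.42 ± 0.26 (SE, edgeR adjusted p = 5.7e-06).

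DNAJC10 (ERdj5), a J protein that reduces wrong disulfide bonds before degradation (chromosome 15, 88198751 to 88256396), had 21.0, 23.2, 19.5, 50.8 and 25.9 CPM in testis and 123, 88.0, 561, 195 and 216 CPM in epididymis. Epididymis replicate 3 stood far above its neighbours, but every epididymis library exceeded every testis library. Its log2 fold change was -3.04 ± 0.48 (SE, edgeR adjusted p = 0.000119).

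DNAJC25, a membrane J protein named through its gene ID, had 1.998, 1.986, 2.13, 6.9997 and 1.89 CPM in testis and 19.4, 21.6, 17.2, 19.4 and 21.4 CPM in epididymis. Apart from testis replicate 4, both tissues were narrow. On the log2 scale the difference was -2.73 ± 0.38 (SE, edgeR adjusted p = 4.6e-05).

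The other members of the compartment are named as examples chosen after their values were seen. DNAJC3 (P58IPK), a BiP cochaperone and kinase inhibitor of the unfolded protein response, had 54.3 ± 18.1 CPM in testis and 203 ± 66.1 CPM in epididymis (SD, 5 libraries each; log2 fold change -1.88, edgeR adjusted p = 3.9e-05). DNAJB11 (ERdj3), a secreted BiP cochaperone, had 28.7 ± 9.62 and 72.1 ± 13.5 CPM (SD, 5 libraries each; log2 fold change -1.31, edgeR adjusted p = 0.00015). HSPA13, a microsomal HSP70, had 21.1 ± 3.98 and 61.9 ± 34.1 CPM (SD, 5 libraries each; log2 fold change -1.52, edgeR adjusted p = 0.0034).

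Libraries overlapped for HSPA13, where epididymis replicate 2 held 17.8 CPM, but not for DNAJC3 and DNAJB11. DNAJC1, which binds BiP and faces the ribosome, had 5.38, 6.12, 7.08, 26.3 and 6.36 CPM in testis and 31.6, 36.3, 28.4, 26.1 and 38.2 CPM in epididymis. Testis replicate 4 lay at the epididymal level, and the log2 fold change was -1.66 (edgeR adjusted p = 0.00385) with it and -2.34 without it. DNAJB14, a membrane J protein, was higher in epididymis by a log2 fold change of -1.30 (edgeR adjusted p = 0.00478), with overlapping libraries.

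The other 4 members of the compartment did not follow. DNAJC18, a membrane J protein, had 81.7 ± 13.6 CPM in testis and 22.3 ± 8.17 CPM in epididymis (SD, 5 libraries each; log2 fold change 1.90, edgeR adjusted p = 1.6e-05), without overlap. DNAJC16 had 83.3, 76.9, 70.0, 34.0 and 82.8 CPM in testis and 41.9, 25.2, 35.7, 49.4 and 48.9 CPM in epididymis. All testis libraries except replicate 4 were above all epididymis libraries, and the log2 fold change was 0.82 (edgeR adjusted p = 0.0166), or -0.14 and not called with testis replicate 4 alone. DNAJB12, a membrane J protein (0.14, edgeR adjusted p = 0.457), and DNAJB9 (ERdj4), which dampens the stress sensor IRE1 (-0.57, edgeR adjusted p = 0.124), were not called. Without epididymis replicate 2 DNAJB9 was called (-0.75, edgeR adjusted p = 0.0308).

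**Figure D3:**
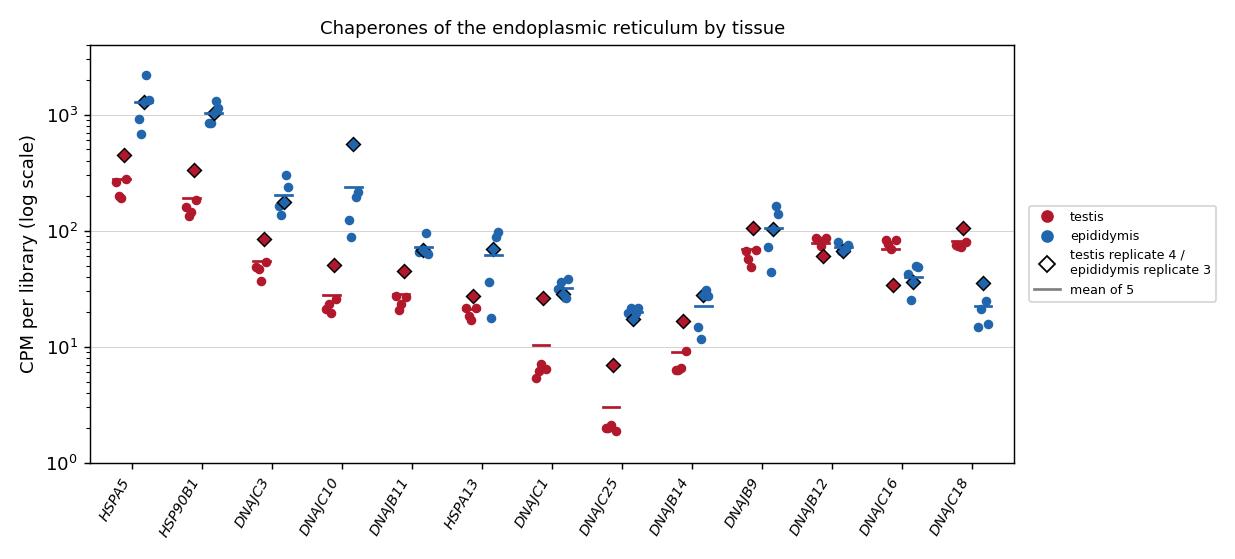
CPM of the 13 endoplasmic reticulum chaperones in each library (log scale), red for testis and blue for epididymis, with the mean of 5 as a bar and diamonds for testis replicate 4 and epididymis replicate 3. HSPA5 and HSP90B1 are the most abundant and lie 680 CPM or higher in every epididymis library, and the testis diamond is the highest testis point for 11 of the 13 genes.

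Shares within the HSP70, HSP90, small heat shock protein and DNAJB families were set beside each other. Levels of different genes were compared per length, as CPM per kb, and shares are given as a description without a test. Among the HSP70 genes HSPA1L, HSPA6, HSPA8, HSPA5, HSPA9, HSPA13 and HSPA14, HSPA1L made up 39.8 ± 2.54% in testis and 0.371 ± 0.255% in epididymis (SD over 5 libraries). HSPA5 made up 26.6 ± 2.22% in testis and 70.2 ± 4.74% in epididymis. HSPA8, the constitutive HSC70, made up 13.0 ± 1.66% and 16.2 ± 3.04%, and the mitochondrial HSPA9 made up 18.4 ± 2.14% and 9.65 ± 2.02%. The absent rows of HSPA2, HSPA1A and HSPA1B mean that these are shares of the analysed genes and not of all HSP70 transcripts.

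Within the cytosolic HSP70 genes alone, HSPA1L took 68.7 to 77.2% in testis and 1.13 to 3.93% in epididymis, and HSPA8 took 21.6 to 30.1% and 89.8 to 94.8%. The row length of HSPA8 in the files, 6571 bases, exceeds the 4483 bases that its gene spans in RefSeq, so its level per length may be understated. By read counts without the division, HSPA1L took 47.2 to 57.8% and HSPA8 38.9 to 49.7% of cytosolic HSP70 reads in testis.

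In the HSP90 family, HSP90AA1 made up 74.9 ± 4.04% in testis and 35.8 ± 3.13% in epididymis, and HSP90B1 made up 15.9 ± 0.845% and 57.5 ± 3.57% (SD over 5 libraries). HSP90AB1, the constitutive form, made up 9.23 ± 3.30% and 6.71 ± 0.727%. The ratio of HSP90AA1 to HSP90AB1 per length was 6.05 to 7.45 in testis replicates 1, 2, 3 and 5, 23.4 in testis replicate 4 and 4.69 to 6.01 in epididymis. Among small heat shock proteins HSPB9 made up 95.6 ± 1.59% in testis, and HSPB6 made up 60.7 ± 8.56% in epididymis (SD over 5 libraries). In the DNAJB family DNAJB1 and DNAJB8 made up 41.8% and 32.5% in testis on average, against 29.9% and 1.34% in epididymis. By read counts these were 40.1% and 21.1% in testis and 17.5% and 0.534% in epididymis.

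**Figure D4:**
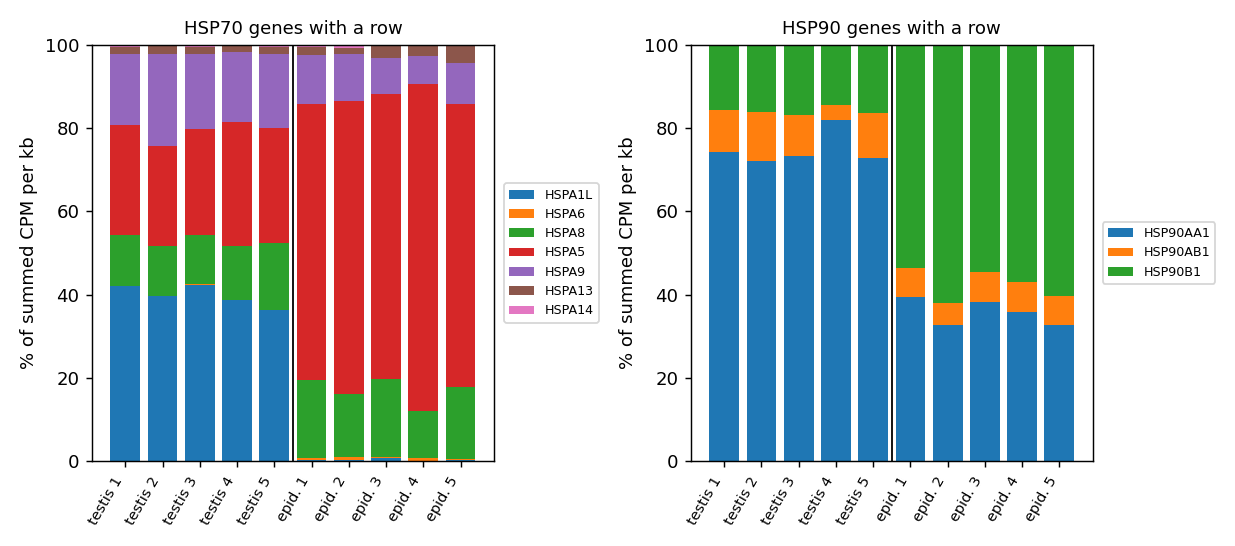
Share of each gene in the summed CPM per kb (y axis, percent) of the HSP70 genes and of the HSP90 genes with a row, as a stacked bar for each testis and epididymis library. HSPA1L fills 36.3 to 42.4% of the HSP70 bar in testis, and HSPA5 fills 66.3 to 78.3% in epididymis. HSP90AA1 holds the largest share of the HSP90 bars in testis and HSP90B1 in epididymis. These are shares, and the level of HSP90AA1 itself was not called between the tissues.

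The constitutive cytosolic chaperones were split, with 2 of 10 higher in testis (36.6% of all genes) and 5 in epididymis (37.8%). The other 3 were not called, and the median log2 fold change was -0.41. HSPA8 (chromosome 9, 49982278 to 49986760) had 316, 257, 232, 505 and 410 CPM in testis and 665, 376, 912, 832 and 870 CPM in epididymis. Epididymis replicate 2 lay among the upper testis libraries and the others lay above them all. Testis over epididymis, the log2 fold change was -1.07 ± 0.27 (SE, edgeR adjusted p = 0.00371), and -0.43 without a call with testis replicate 4 alone.

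DNAJA1, the main HSC70 cochaperone (chromosome 10, 33432529 to 33445556), had 191, 173, 168, 637 and 209 CPM in testis and 75.1, 65.1, 227, 127 and 139 CPM in epididymis. Testis replicate 4 was the highest of all libraries, and epididymis replicate 3 lay above the other 4 testis libraries. The log2 fold change of 1.14 ± 0.43 (SE, edgeR adjusted p = 0.0314) was 0.59 without testis replicate 4 (edgeR adjusted p = 0.115) and 2.44 with it alone for the testis (edgeR adjusted p = 0.0163), and the call was also lost without epididymis replicate 1, 2 or 4 (edgeR adjusted p = 0.0732, 0.0712 and 0.0612).

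The remaining cytosolic members are named after their values were seen. DNAJB6, an aggregation suppressor, had 196 ± 24.9 CPM in testis and 77.1 ± 5.68 CPM in epididymis (SD, 5 libraries each; log2 fold change 1.37, edgeR adjusted p = 3.6e-06), without overlap. DNAJA2 had 35.3 ± 7.29 and 71.1 ± 5.53 CPM (SD, 5 libraries each; edgeR adjusted p = 0.000153), and DNAJB5 11.9 ± 0.595 and 40.6 ± 14.7 CPM (SD, 5 libraries each; edgeR adjusted p = 9.7e-05), both without overlap. With testis replicate 4 alone for the testis, none of the 5 cytosolic members higher in epididymis kept the call, among them DNAJA2 (-0.49, edgeR adjusted p = 0.213), DNAJB5 (-1.75, edgeR adjusted p = 0.0795), DNAJC7 (0.19, edgeR adjusted p = 0.599) and HSPA14 (-0.07, edgeR adjusted p = 0.875).

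DNAJC7 (-0.80, edgeR adjusted p = 0.013) lost its call without testis replicate 1 or 3 (edgeR adjusted p = 0.0589 and 0.063). HSPA14, which works at the ribosome (-0.52, edgeR adjusted p = 0.0193), lost its call without testis replicate 1, 2 or 3 (edgeR adjusted p from 0.0635 to 0.092) and with DESeq2 size factors. HSPA4, an HSP110, had 71.2, 59.7, 60.4, 153 and 75.3 CPM in testis and 92.9, 71.2, 93.9, 118 and 117 CPM in epididymis. Testis replicate 4 was above all libraries of both tissues. HSPA4 was not called with it (-0.22, edgeR adjusted p = 0.448) and was higher in epididymis without it (-0.54, edgeR adjusted p = 0.0131). HSP90AB1 (-0.30, edgeR adjusted p = 0.204) was called only without epididymis replicate 2 (edgeR adjusted p = 0.042), and DNAJB2 (0.33, edgeR adjusted p = 0.103) without epididymis replicate 1 (edgeR adjusted p = 0.0448) and with DESeq2 size factors.

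Mitochondrial chaperones were mostly not called, 6 of 9, with 1 higher in testis (36.6% of all genes) and 2 in epididymis (37.8%). HSPE1 and HSPD1, the chaperonin pair, are neighbours on chromosome 15, 520 bases apart (101374019 to 101376146 and 101360355 to 101373498). HSPE1 had 18.0, 21.5, 17.7, 122 and 22.6 CPM in testis and 55.2, 62.0, 70.3, 68.0 and 60.7 CPM in epididymis. HSPD1 had 45.4, 45.5, 38.0, 143 and 55.1 CPM in testis and 78.4, 70.4, 150, 126 and 118 CPM in epididymis. For both genes the testis libraries other than replicate 4 were below all epididymis libraries, and replicate 4 lay at or above the epididymal level.

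Neither gene of the pair was called over all libraries. This gave a log2 fold change of -0.65 ± 0.51 for HSPE1 (SE, edgeR adjusted p = 0.259), -1.63 without testis replicate 4 (edgeR adjusted p = 4.0e-06) and 1.06 with that library alone for the testis (edgeR adjusted p = 0.0177). For HSPD1 it was -0.72 ± 0.36 (SE, edgeR adjusted p = 0.0863) and -1.20 without testis replicate 4 (edgeR adjusted p = 0.000738). With the boar as a block, both were called (edgeR adjusted p = 0.0303 for HSPE1 and 0.0321 for HSPD1). The ratio of HSPD1 to HSPE1 per length was 0.396 in testis replicate 4, 0.715 to 0.854 in the other testis libraries and 0.384 to 0.722 in epididymis.

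DNAJC19, a J protein of the mitochondrial import motor (chromosome 13, 118907299 to 118913270), had 3.95, 5.40, 5.83, 16.8 and 5.83 CPM in testis and 40.8, 39.7, 39.5, 42.5 and 61.5 CPM in epididymis. Even testis replicate 4 was below every epididymis library. Its log2 fold change was -2.57 ± 0.37 (SE, edgeR adjusted p = 6.0e-05), and -1.32 without a call with testis replicate 4 alone. DNAJC15, the related import regulator, went the other way with overlapping libraries (0.79, edgeR adjusted p = 0.00622). DNAJC4 was higher in epididymis without overlap (-1.24, edgeR adjusted p = 0.000311).

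HSPA9 (mortalin) had 202 ± 47.6 CPM in testis and 179 ± 36.7 CPM in epididymis (SD, 5 libraries each; edgeR adjusted p = 0.392). DNAJA3 (-0.13), DNAJC11 (0.31) and DNAJC28 (-0.70) were not called either. DNAJC11 was called without testis replicate 3 and with DESeq2 size factors, and DNAJC28 without testis replicate 4 (edgeR adjusted p = 0.0122) or epididymis replicate 2 (edgeR adjusted p = 0.0295).

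Of 5 J proteins of the nucleus, the spliceosome and the ribosome, 3 were higher in epididymis (37.8% of all genes) and 2 were not called. DNAJC8, a splicing-associated J protein, had 19.7 ± 7.91 CPM in testis and 53.3 ± 7.01 CPM in epididymis (SD, 5 libraries each; log2 fold change -1.44, edgeR adjusted p = 0.000196), without overlap. None of the 3 kept the call with testis replicate 4 alone for the testis, with DNAJC8 at -0.56 (edgeR adjusted p = 0.222), DNAJC24 at -0.08 (edgeR adjusted p = 0.951) and DNAJC9 at 0.35 (edgeR adjusted p = 0.58). DNAJC24, needed for diphthamide synthesis (-1.39, edgeR adjusted p = 0.0243), lost its call without any 1 of testis replicates 1, 2, 3 and 5 or epididymis replicates 4 and 5. DNAJC9, a histone chaperone (-0.98, edgeR adjusted p = 0.0446), lost it without any 1 of 8 libraries, the exceptions being testis replicate 4 and epididymis replicate 4, and with DESeq2 size factors. DNAJC2, which binds ribosomes, was not called (-0.65, edgeR adjusted p = 0.0625). It was called without testis replicate 4 (-1.02, edgeR adjusted p = 0.000457), without epididymis replicate 3 (edgeR adjusted p = 0.0349) and with the boar as a block (edgeR adjusted p = 0.0434). DNAJC17, a splicing J protein, was not called (0.34, edgeR adjusted p = 0.33).

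Among 5 J proteins of vesicles and membranes, 2 were higher in testis (36.6% of all genes) and 2 in epididymis (37.8%). The other 1, DNAJC13, was not called. DNAJC6 (auxilin), which uncoats clathrin vesicles (chromosome 6, 146990115 to 147161010), had 2.36, 1.92, 1.25, 1.39 and 1.97 CPM in testis and 28.7, 16.6, 11.6, 35.5 and 58.0 CPM in epididymis. Epididymis libraries spread widely but stayed above the testis. On the log2 scale the difference was -4.06 ± 0.45 (SE, edgeR adjusted p = 7.1e-06). DNAJC5, the cysteine string protein of secretory vesicles, was higher in epididymis as well, at 22.9 ± 2.54 and 44.0 ± 8.23 CPM (SD, 5 libraries each; log2 fold change -0.93, edgeR adjusted p = 0.00079), opposite to its testis relatives DNAJC5B and DNAJC5G. It was not called with testis replicate 4 alone for the testis (-0.67, edgeR adjusted p = 0.211). DNAJC27, a Rab-like GTPase with a J domain (chromosome 3, 113816718 to 113857117), had 32.9, 28.8, 24.4, 38.0 and 31.9 CPM in testis and 6.57, 7.12, 7.84, 9.01 and 5.73 CPM in epididymis. The tissues did not overlap, and the log2 fold change was 2.13 ± 0.18 (SE, edgeR adjusted p = 9.6e-07). DNAJC14 was higher in testis by 0.88 (edgeR adjusted p = 0.00023).

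The 2 divergent HSP70 relatives, HSPA12A and HSPA12B, differed in opposite directions. HSPA12A (chromosome 14, 126851898 to 127037273) had 175, 176, 157, 137 and 154 CPM in testis and 6.41, 8.71, 10.3, 7.56 and 5.63 CPM in epididymis. Both tissues were narrow, testis replicate 4 was here the lowest testis library, and the log2 fold change was 4.40 ± 0.21 (SE, edgeR adjusted p = 1.9e-08). HSPA12B, known from endothelium, had 14.8 ± 1.66 CPM in testis and 36.1 ± 7.96 CPM in epididymis (SD, 5 libraries each; log2 fold change -1.26, edgeR adjusted p = 9.1e-05). Endothelial markers summed to 207 to 435 CPM in testis and 204 to 522 CPM in epididymis, and 2 of 5 were higher in epididymis. Their part in HSPA12B was not tested.

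DNAJC22, a membrane J protein, had 5.38, 4.90, 5.46, 4.70 and 4.80 CPM in testis and 0.305, 1.15, 25.7, 1.67 and 0.637 CPM in epididymis. Epididymis replicate 3 alone exceeded the testis. Testis over epididymis, the log2 fold change was -0.16 with all libraries (edgeR adjusted p = 0.887) and 2.44 without that library (edgeR adjusted p = 0.000163). HSPB11, a part of the ciliary transport complex (-0.60, edgeR adjusted p = 0.166), was called only without epididymis replicate 5 (edgeR adjusted p = 0.0318). HSPBAP1, which binds HSPB1, was higher in epididymis at the margin (-0.59, edgeR adjusted p = 0.0437) and lost the call without any 1 of 8 libraries, the exceptions being testis replicate 4 and epididymis replicate 5, with testis replicate 4 alone for the testis (edgeR adjusted p = 0.998), with DESeq2 size factors and with the boar as a block (edgeR adjusted p = 0.0863).

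Most members were highest of the testis in replicate 4. Their summed level was 10921 CPM there, 5934 to 6912 CPM in the other testis libraries and 5319 to 8862 CPM in epididymis. Of the 63 tested, 45 (71.4%) were above each other testis library, against 40.6% of all genes tested, and 12 (19%) were below each, against 35.4%. For 13 members (20.6%, against 6.73% of all genes) the level was over 2-fold above each other testis library. These shares describe 1 library and carry no test. The ratio of replicate 4 to the mean of the other 4 was 6.13 for HSPE1, 4.22 for DNAJC1, 3.44 for DNAJA1, 3.12 for HSPD1 and 2.66 for HSP90AA1. It was lowest for HSPB1 at 0.412 and DNAJC16 at 0.435.

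Where testis replicate 4 was the single testis library, 3 of the 42 called members, DNAJC16, DNAJC7 and DNAJC9, changed direction and the others kept it. Of the 15 members higher in testis 1 changed direction, and of the 27 higher in epididymis 2 did. No germ cell or muscle member changed direction. A fit with 1 testis library calls less readily. DNAJB5 kept its size there, at -1.75 beside -1.77 with all libraries. Most other members higher in epididymis had a log2 fold change of smaller size there. It was -0.19 beside -1.66 for DNAJC1, -0.43 beside -1.07 for HSPA8, -0.56 beside -1.44 for DNAJC8 and -1.40 beside -2.19 for HSPA5. The size was larger for DNAJC4, DNAJC6, HSPA12B, HSPB6 and HSPB8. Spermatocyte markers did not move as one in that library. STAG3 stood at 464 CPM there and at 911 to 1061 CPM in the other testis libraries, and TEX11 was lowest there too, whereas SYCP1, SYCP3, DMC1 and MEIOB were highest there. Whether the header age of that boar, its low content of structural RNA or its germ cell make-up had a part in these values was not tested. In epididymis replicate 3, 18 members (28.6%) were above each other epididymis library, against 31.9% of all genes.

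**Figure D5:**
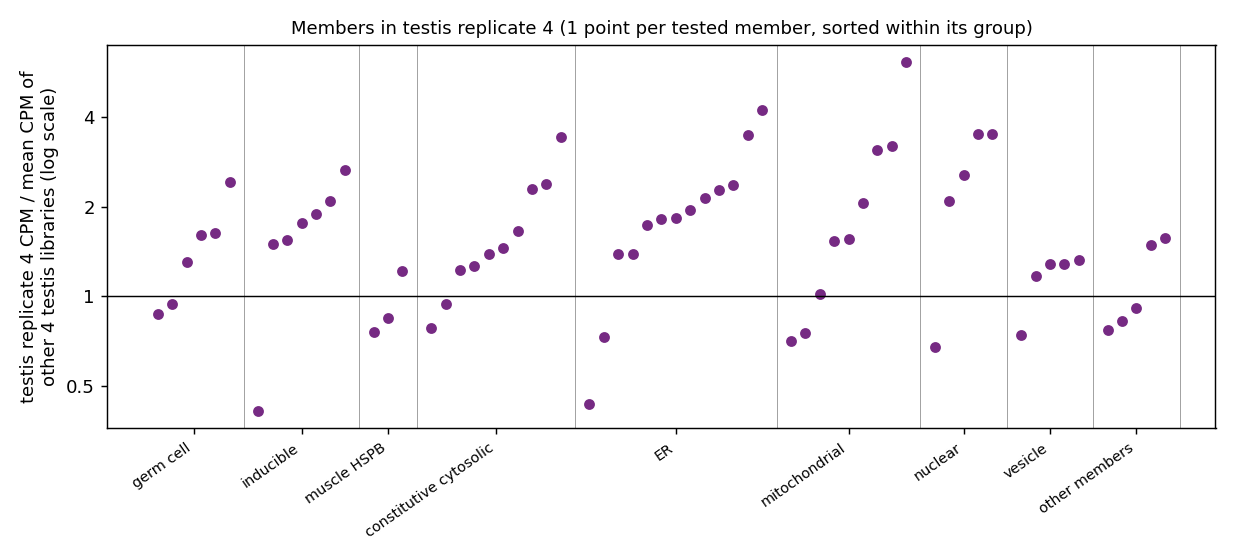
Ratio of the CPM in testis replicate 4 to the mean CPM of the other 4 testis libraries (y axis, log scale) for the 63 tested members, by role group. Points above the line at 1 are higher in replicate 4, up to 6.13 for HSPE1 among the mitochondrial chaperones, and the lowest is 0.412 for HSPB1 among the inducible ones.

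Genes that regulate or assist these chaperones differed in both directions as well. Of 63 listed genes, 59 had a row and 56 were tested. By edgeR, 27 were higher in testis, 16 in epididymis and 13 were not called, at a median log2 fold change of 0.39, beside 36.6% and 37.8% of all genes tested. Where testis replicate 4 stood alone for the testis, CDC37L1, PFDN2 and CANX lost their call, at log2 fold changes of -1.61, -0.20 and -1.82. Of 6 heat shock factors and their partners, 4 were higher in testis and none in epididymis. The germ cell factor HSF5 had 173 ± 25.0 CPM in testis and 1.05 ± 0.725 CPM in epididymis (SD over 5 libraries), a log2 fold change of 7.39 ± 0.50 (SE, edgeR adjusted p = 1.5e-07).

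Of 12 HSP70 exchange factors and regulators, 6 were higher in testis and 3 in epididymis, beside 36.6% and 37.8% of all genes tested. HSP90 cochaperones stood near these shares of all genes, with 6 and 7 of 17. CDC37L1, a relative of the kinase cochaperone CDC37, led the epididymal side at -2.58 (edgeR adjusted p = 0.00133). Its level was 141 CPM in epididymis replicate 3 and between 19.9 and 33.0 CPM in the other libraries of that tissue, and without that replicate the log2 fold change was -1.67. Of 11 tested subunits of the cytosolic chaperonin CCT and of prefoldin, 6 were higher in testis and 3 in epididymis. PFDN2, a prefoldin subunit, stood at 46.3 CPM in testis replicate 4, and the other testis libraries held 4.87 to 6.76 CPM. Its log2 fold change was -2.05 (edgeR adjusted p = 0.00971), and -3.26 without that library.

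Among 10 related chaperones under other names, 5 were higher in testis (36.6% of all genes) and 3 in epididymis (37.8%). CLGN (calmegin), the calnexin form of male germ cells, had 168 ± 55.7 CPM in testis and 1.12 ± 0.973 CPM in epididymis (SD, 5 libraries each; log2 fold change 7.24, edgeR adjusted p = 4.1e-07), and 7.86 without epididymis replicate 3. CANX (calnexin), its general counterpart, had 189 ± 39.3 and 936 ± 430 CPM (SD, 5 libraries each; log2 fold change -2.28, edgeR adjusted p = 5.7e-05). ODF1, a small heat shock protein of the sperm tail that is also one of the spermatid markers, was higher in testis by 6.32 (edgeR adjusted p = 0.000107), and by 7.87 without epididymis replicate 3.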

How the data were processed

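Tissue RNA of 5 boars was sequenced as 10 short-read libraries, 1 per tissue and boar. The deposited files hold raw read counts per gene, made by the authors with STAR, featureCounts (Subread) and cutadapt 3.0 on the genome build Sscrofa11.1, per the submitters' processing notes. The gene length, in bases, is another deposited column, per the file headers. For the annotation release, the strand setting and multiply mapped reads, the choice is not given in the sources used here, so counts of near-identical copies, overlapping and antisense genes are uncertain. For 5 members the row is longer than the gene in RefSeq (DNAJC14, HSPA6, HSPA8, HSPB3 and HSPB7), which may lower their value per length. Whether such rows also hold reads from outside that gene was not tested, so their counts are uncertain too. The 2 long-read samples, pooled from 5 boars each, are not used here.

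Ensembl identifiers stand for symbols in 15226 of 30640 rows. A table of gene IDs and symbols matched 822 of them and named 810. Symbols of 61 members are in the files, and 4 come from that list (DNAJA1, DNAJB11, DNAJC25 and DNAJC4). Positions, for 63 members, are whole genes of RefSeq's gene table (Sscrofa11.1), counted from 1. Of 68 genes listed by role, 9 are not analysed here (HSPA2, HSPA4L, HSPA1A, HSPA1B, HSPB2, DNAJB3, DNAJB7, DNAJC21 and DNAJC30).

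Libraries held 17980578 to 30211957 reads, and 3 reads, the most that a count of 0 allows, are 0.0993 to 0.167 CPM. The cDNA was amplified without molecular identifiers, so this covers counting error only. No pair of libraries within a tissue was alike (lowest chi-square per degree of freedom 9.53). The tissues were compared with edgeR 4.0.16 in R 4.3.3 (filterByExpr, TMM factors, robust quasi-likelihood test, tissue as the only term), with Benjamini-Hochberg adjustment over 17225 genes and a threshold of 0.05. glmTreat tested for a change beyond 2-fold. Standard errors are approximate, the unshrunk log2 fold change over the square root of F. The fit was tested on simulated counts with the same spread for all genes, few changed genes and no departing library. Conditions like those of these data were thus not tested. In this fit p-values set the tissue difference against the spread between libraries of a tissue, without pairing the tissues of a boar. Per the labels' protocols the animals had no treatment, and tissues of 1 boar share its number in the headers. Deviations of same-numbered libraries correlated at only 0.00867 to 0.0893, and a fit with the boar as a block was an alternative.

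The members, role lists and pathway lists were chosen with earlier results of these data known. Genes named with values were HSPA1L, all inducible and muscle members, the 10 largest called changes in each direction without overlap, the 10 highest levels per kb and, of the pathway lists, the 3 largest called changes in each direction. Others are examples chosen after their values were seen. Alternatives were DESeq2 1.42.0, its size factors in edgeR, library totals, no filter, the block, leaving out each library, leaving out structural RNA, histone and mitochondrial genes, testis replicate 4 alone, epididymis replicates 3 and 4 left out, and shares without length.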

Additional observations from a re-analysis of the deposited data

Results flagged for a closer look

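In 45 of 141 groups of 5 libraries, the highest or the lowest library stood apart from the nearest other by more than 0.71 of the range of the group. For independent values from a normal distribution this is seen in about 1 in 20 groups. The groups here share the same libraries, so that rate does not apply to them. Over all genes tested, testis replicate 4 was the highest testis library for 40.6% and the lowest for 35.4%. The share of such groups over all genes is not given, so no excess in the listed genes can be read. Testis replicate 4 was the library that stood apart in 32 cases and epididymis replicate 3 in 8. These values are given without an explanation.

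Among germ cell, inducible and cytosolic members, testis replicate 4 stood high for HSPB9 (1519 CPM), DNAJB8 (403 CPM), DNAJC5B (199 CPM), DNAJB1 (877 CPM), HSP90AA1 (2291 CPM), DNAJA4 (144 CPM), DNAJB4 (23.1 CPM), DNAJA1 (637 CPM), HSPA4 (153 CPM), DNAJB2 (146 CPM) and DNAJC7 (75.0 CPM). Among those of the endoplasmic reticulum it stood high for HSP90B1 (332 CPM), DNAJC10 (50.8 CPM), DNAJC18 (105 CPM), DNAJC25 (6.9997 CPM), DNAJB11 (45.2 CPM), DNAJB14 (16.8 CPM) and DNAJC1 (26.3 CPM). Among mitochondrial, nuclear and vesicle members it stood high for HSPD1 (143 CPM), HSPE1 (122 CPM), DNAJC19 (16.8 CPM), DNAJC28 (8.39 CPM), DNAJC2 (27.5 CPM), DNAJC24 (8.39 CPM), DNAJC8 (33.7 CPM), DNAJC9 (10.9 CPM) and DNAJC14 (159 CPM). It stood low for DNAJC16 (34.0 CPM) and HSPA12B (11.9 CPM), and high for the related genes CDC37L1 (14.4 CPM), PFDN2 (46.3 CPM) and ODF1 (1368 CPM).

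Epididymis replicate 3 stood high for HSPA1L (16.0 CPM), DNAJB8 (12.3 CPM), HSPB9 (37.4 CPM), DNAJC10 (561 CPM), DNAJC22 (25.7 CPM), CDC37L1 (141 CPM) and ODF1 (45.5 CPM), and low for DNAJC2 (16.5 CPM). Epididymis replicate 5 stood high for DNAJA4 (255 CPM) and DNAJC19 (61.5 CPM) and low for HSPB11 (0.539 CPM). Epididymis replicate 2 stood high for DNAJB4 (26.1 CPM) and epididymis replicate 4 for DNAJB11 (95.9 CPM).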

How the results depend on the processing

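Of 1239 recomputed log2 fold changes of single genes with an adjusted p, 1122 kept direction and call, 66 lost the call, 27 gained one and 24 changed sign. DESeq2 gave no adjusted p for DNAJC22, HSPE1 and CDC37L1, and DNAJC22 changed sign there (0.0062). No other gene changed sign with DESeq2, and none did with its size factors (which moved the median of all genes from -0.07 to 0.05), library totals or no filter. Leaving out 1 library gave 14 to 16 members higher in testis, 22 to 33 higher in epididymis, 11 to 12 and 12 to 19 beyond 2-fold, and 26 to 27 and 10 to 21 other pathway genes. The 10 were reached without testis replicate 1 and without testis replicate 3. Testis replicate 4 alone gave 8 members higher in epididymis, 3 beyond 2-fold and 2 pathway genes, from 1 testis library assumed to vary like the others. DESeq2 gave 11 pathway genes higher in epididymis.

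With the replicate block, 15 members were higher in testis and 29 in epididymis. It changed the call of HSPD1, HSPE1, DNAJC2 and HSPBAP1 and of no other member. The pathway genes named kept their calls under it. DNAJC22 changed sign under the block (1.78), without epididymis replicate 3 (2.44) and without epididymis replicates 3 and 4 (2.80). DNAJA4 changed sign without epididymis replicates 3 and 4 (-0.43), 3 (-0.16) or 4 (-0.09), or testis replicate 4 (-0.00882). HSPB1 changed sign without epididymis replicates 3 and 4 (-0.22), 4 (-0.12) or 5 (-0.01), or testis replicate 2 (-0.07). With testis replicate 4 alone the sign changed for HSPB1 (-0.94), DNAJB4 (0.29), DNAJB12 (-0.16), DNAJB9 (0.11), DNAJC16 (-0.14), DNAJC17 (-0.055), DNAJC2 (0.41), DNAJC28 (0.15), DNAJC7 (0.19), DNAJC9 (0.35), HSPA4 (0.73), HSPD1 (0.51) and HSPE1 (1.06). Leaving out 1 library, the log2 fold change ran from -0.16 to 0.88 for DNAJA4, from -0.12 to 0.38 for HSPB1 and from -0.47 to 2.44 for DNAJC22. The cause was not tested.

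Without division by length, the testis share was 33.6% for HSPA1L, 20.9% for HSPA5 and 26.3% for HSPA8 among HSP70 genes, and the epididymis share was 54.7% for HSPA5 and 32.3% for HSPA8. Among HSP90 genes it was 12.7% and 50.5% for HSP90B1 and 13.7% and 10.9% for HSP90AB1. The same for other families was chosen after seeing the data: in testis DNAJB8 made up 21.1% and DNAJB1 40.1% of DNAJB genes, and HSPB9 88.6% and HSPB6 5.47% of small heat shock proteins, and in epididymis DNAJB1 made up 17.5% and DNAJB8 0.534%. Depth limits HSPB3, DNAJC12, and DNAJC5G in epididymis, which rest on few reads.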
